A study of Mus musculus with 2 samples.

Results

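The 30 genes described here encode the enzymes that build cholesterol, the proteins that sense it and switch those enzymes on, and the proteins that carry, export or store it. They were chosen by name for their role in cholesterol metabolism by a rule that uses no measured value. Earlier results of these data were known when the choice was made. The set is 30 of the 20660 genes that could be named on the arrays, read by 39 of 55680 probes. Of these genes, 18 are enzymes of synthesis, 6 belong to sterol sensing and transcription and 6 to sterol transport, efflux and storage.

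Primitive erythroid progenitors at the pre CFU-E stage, the stage just ahead of the colony forming unit-erythrocyte, were sorted from the marrow of wild-type (WT) mice and of mice lacking endothelial cell-selective adhesion molecule (ESAM-KO), an adhesion molecule also found on hematopoietic stem cells. Adult mice of the C57BL/6 strain of both genotypes had received 1 injection of 5-fluorouracil (5-FU, 120 mg/kg), an anti-cancer drug that depletes cycling marrow cells, and were killed 8 days later, so that no array shows cells without the drug. The sort kept cells that were c-Kit+, endoglin+, CD150+ and CD41Lo, and left out those that were Sca1+, strongly FCgRII/III+ or stained by the lineage antibodies. Each genotype was measured on 1 single-colour Agilent array with RNA from cells of several pooled mice, amplified before labelling, and the comparison asks how gene expression in these cells differed in the absence of ESAM. The deletion was in all cells of the ESAM-KO mice, so that an effect within the sorted cells and one that reached them from other cells cannot be told apart.

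Cells make cholesterol from acetyl-CoA. The mevalonate steps end in farnesyl diphosphate, which also feeds the isoprenoids; squalene synthase commits it to sterols, squalene is cyclised to lanosterol, and a further series of enzymes trims lanosterol to cholesterol. When the endoplasmic reticulum runs low on sterol, Scap carries the SREBP transcription factors to the Golgi, where they are cut free to switch on genes of synthesis and uptake, while Insig proteins hold Scap back when sterol is plentiful. Oxidised sterols activate the liver X receptors, which switch on exporters such as Abca1 and Abcg1. Dividing progenitors need sterol for new membrane, and developing red cells remodel theirs.

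RefSeq promoters of assembly GRCm38.p6 were matched to 24 of the 30 genes, all but Fdps, Fdft1, Sqle, Stard4, Abcg1 and Npc1. The 250 bases before the start are shown for 5 genes on which the results below turn: 3 enzyme genes more than 2-fold higher in ESAM-KO (Msmo1, chr8:64733579-64733828, minus strand; Cyp51, chr5:4104698-4104947, minus strand; Lss, chr10:76531355-76531604, plus strand), an early enzyme gene that was not (Hmgcs1, chr13:119690101-119690350, plus strand), and an exporter gene that was lower (Abca1, chr4:53159896-53160145, minus strand). Each reads 5′ to 3′ towards the gene. Capitals mark a sterol regulatory element (TCACNCCAC), an E-box (CACGTG), an inverted CCAAT box (ATTGG, or CCAAT on the other strand) or a GC box (GGGCGG, or CCGCCC), the sites read by SREBP, by E-box factors, by NF-Y and by Sp1, and no marked sites overlap.
Msmo1: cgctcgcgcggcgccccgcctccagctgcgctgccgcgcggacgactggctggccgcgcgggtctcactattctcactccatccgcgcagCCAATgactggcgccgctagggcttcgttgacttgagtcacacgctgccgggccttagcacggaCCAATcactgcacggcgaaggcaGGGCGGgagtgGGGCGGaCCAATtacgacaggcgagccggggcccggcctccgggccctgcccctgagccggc
Cyp51: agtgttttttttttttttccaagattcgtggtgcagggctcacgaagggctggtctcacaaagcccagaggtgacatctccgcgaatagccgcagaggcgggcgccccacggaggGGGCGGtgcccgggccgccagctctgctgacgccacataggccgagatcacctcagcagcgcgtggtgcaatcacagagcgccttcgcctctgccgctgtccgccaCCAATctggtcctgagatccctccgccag
Lss: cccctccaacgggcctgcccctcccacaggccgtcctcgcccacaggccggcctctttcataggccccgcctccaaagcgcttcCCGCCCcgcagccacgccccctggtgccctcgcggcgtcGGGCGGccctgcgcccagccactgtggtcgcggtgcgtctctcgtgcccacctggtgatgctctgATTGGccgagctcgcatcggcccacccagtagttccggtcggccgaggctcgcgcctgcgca
Hmgcs1: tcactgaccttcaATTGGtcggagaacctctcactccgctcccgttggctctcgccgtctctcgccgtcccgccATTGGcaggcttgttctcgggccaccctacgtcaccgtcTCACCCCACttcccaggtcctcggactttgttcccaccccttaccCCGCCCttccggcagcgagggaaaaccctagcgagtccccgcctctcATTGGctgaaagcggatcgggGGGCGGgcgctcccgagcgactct
Abca1: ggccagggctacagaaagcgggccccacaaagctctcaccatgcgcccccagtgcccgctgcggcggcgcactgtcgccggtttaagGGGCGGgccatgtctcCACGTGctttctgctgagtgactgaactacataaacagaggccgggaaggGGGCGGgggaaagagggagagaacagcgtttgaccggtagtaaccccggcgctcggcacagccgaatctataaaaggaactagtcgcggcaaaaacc
The Msmo1 stretch held CCAAT boxes whose first bases lay at -160, -96 and -55 from the start, with GC boxes at -73 and -62. In Cyp51 a CCAAT box lay at -29 and a GC box at -135, and in Lss a CCAAT box lay at -62. Hmgcs1 was the only one of the 24 genes with a sterol regulatory element of these letters, at -137, and Abca1 held an E-box at -147 and no CCAAT box.

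Motifs were counted from 250 bases before to 50 after the start and on both strands, at any start of a gene with several. An inverted CCAAT box was in 20 of the 24 genes, or 83.3%, and in 41.1% of all 27025 genes with a promoter (37.4% of 32851 promoters). A GC box was in 22 of the 24, or 91.7%, against 38.2% of all genes with a promoter. Since the genes read on these arrays are a selected group, the shares were also taken over the 11313 named genes with a ratio and a promoter, and were 42.9% for the CCAAT box and 61.5% for the GC box. The E-box was in 6 of the 24 (Abca1, Dhcr7, Hsd17b7, Insig1, Sc5d and Scap), or 25%, against 8.09% of all genes with a promoter and 10.9% of those with a ratio. At its brightest probe none of these 6 was more than 2-fold higher in ESAM-KO, beside 6.99% of all genes with a ratio. Abca1 was lower, beside 8.43%. These 6 genes are too few to relate the E-box to direction, and a link was not tested. Hsd17b7 was past 2-fold higher at its dimmer probe (log2 ratio 1.65). The sterol regulatory element, in 1 of the 24 (4.17%), was in 1.44% of all genes with a promoter and 1.46% of those with a ratio. These matches describe the letters of the windows and do not show binding.

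The values are the scanner software's signals, in arbitrary units after background subtraction. The 75th percentile of the signal was 201.4 for WT and 251.1 for ESAM-KO, and each ratio is the log2 of ESAM-KO over WT once both arrays had been set to that percentile, which lowers every ratio by 0.32 against the unscaled signals. A gene is read by its brightest probe, that of highest mean log2 signal over both arrays, so that the choice draws on the values compared. Levels of different probes are otherwise not compared, and 2-fold, the study's criterion, is 1 on this scale. The error given with a ratio is the scanner software's estimate for the spots of both arrays and covers spot measurement only. With 1 array per genotype there was no replicate, no test could be made, and a difference between genotypes cannot be told apart from one between pools, sorts or amplifications. Nor can fewer cells of a type be told apart from less RNA of a gene per cell in bulk samples. The 1 named probe of Esam was dim, at 27.4 in WT and 20.6 in ESAM-KO (ratio -0.73, error 0.31), and is a weak check of the labels.

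A ratio could be given for 29 of the 30 genes. Past 2-fold were 8 of the 29, or 27.6%, against 15.4% of the 14144 named genes with a ratio. Those higher in ESAM-KO were 6, Msmo1, Insig2, Lss, Sqle, Cyp51 and Nr1h2 (20.7%, against 6.99% of all genes), and those lower were 2, Abca1 and Abcg1 (6.9%, against 8.43%). Lss was above background in ESAM-KO only and is counted by a bound. With both arrays required above background, 5 of 28 genes were higher, against 5.21% of all genes so measured, and 2 lower, against 7.36%. The set as a whole was not shifted against all genes. Its median ratio was -0.08, against 0.00 for all named genes (0.0005 before rounding), and 17 of the 29 lay below 0, or 58.6%, against 49.9%, a number that was 9 without scaling. The genes higher in ESAM-KO were 4 enzymes that act after farnesyl diphosphate and 2 regulators, whereas the 2 that were lower were both exporters.

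**Figure D1:**
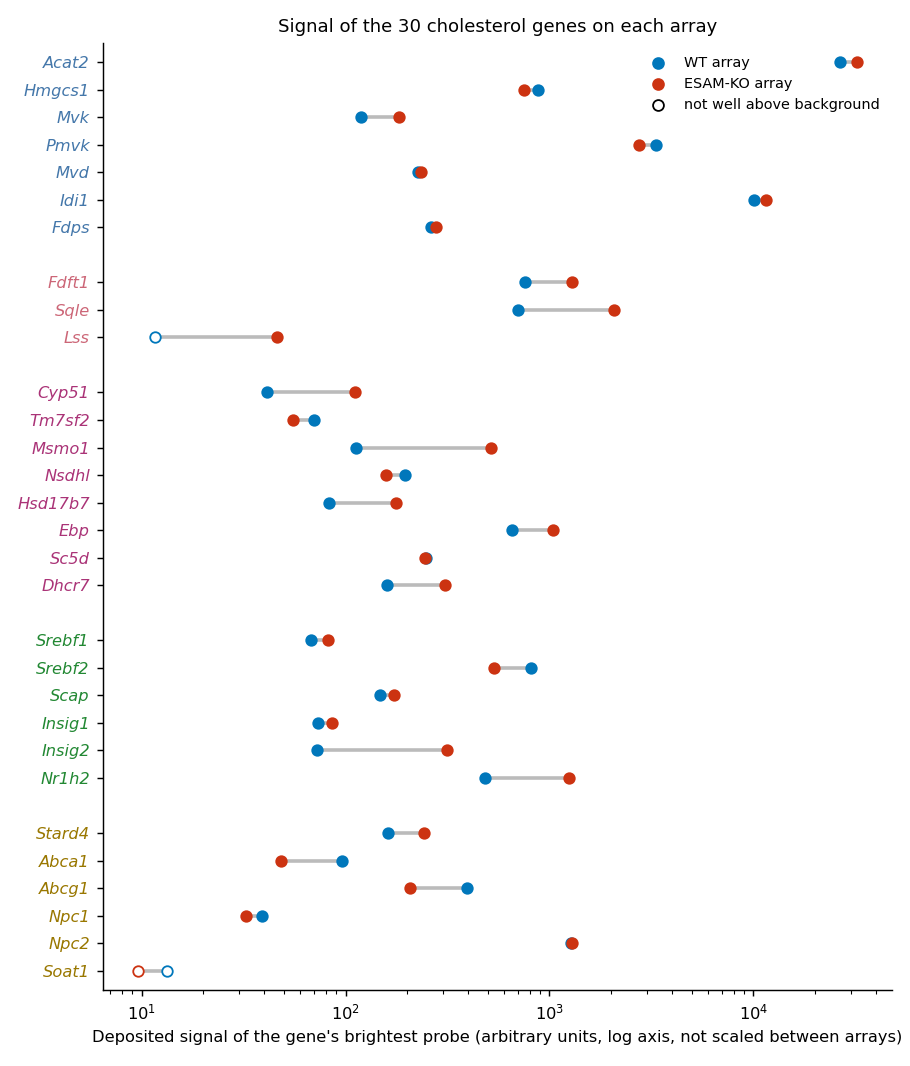
Deposited signal of the brightest probe of each of the 30 genes in WT (blue) and in ESAM-KO (red), in arbitrary units on a log axis and not scaled between arrays, with open points where the probe was not well above background. Only the 2 points of a row can be compared, and the widest gaps are those of Msmo1 (112 and 514) and Insig2 (72.3 and 315) among genes above background on both arrays.

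The mevalonate steps showed no enzyme past 2-fold. All 7 genes were above background on both arrays, their median ratio was -0.23, and 6 of the 7 lay below 0, a number that was 2 without scaling. Acat2 (NM_009338), which joins acetyl-CoA units, read 26578 in WT and 32069 in ESAM-KO (ratio -0.05, error 0.20). Hmgcs1 (NM_145942), the HMG-CoA synthase, read 880 in WT and 753 in ESAM-KO (ratio -0.54, error 0.20). Idi1 (NM_145360), which isomerises isopentenyl diphosphate, read 10094 and 11563 (ratio -0.12, error 0.20). Of these, Hmgcs1 was the lower on the ESAM-KO array also before scaling, whereas Acat2 and Idi1 were brighter there before scaling and below 0 after it by less than the error.

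The kinases of mevalonate differed in direction. Mevalonate kinase, Mvk (NM_023556), read 119 in WT and 183 in ESAM-KO at its brighter probe (ratio 0.30, error 0.21), and 37.4 and 92.4 at the dimmer one (ratio 0.99, error 0.24), just short of the criterion. The next kinase, Pmvk (NM_026784), read 3336 and 2757 at its brighter probe (ratio -0.59, error 0.20), and its other probe was at -0.40. Mvk was thus the only one of the 7 above 0, in both of its probes. The decarboxylase Mvd (NM_138656) read 227 and 235 (ratio -0.27, error 0.21), and Fdps (NM_001253751), which makes farnesyl diphosphate, read 262 and 278 (ratio -0.23, error 0.21).

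The next steps, from farnesyl diphosphate to lanosterol, were the highest of the set, with a median of 1.24 over 3 genes. Squalene synthase, Fdft1 (NM_010191), which commits farnesyl diphosphate to sterols, read 757 in WT and 1285 in ESAM-KO (ratio 0.44, error 0.20), but its dimmer probe read 48.8 and 43.9 (ratio -0.47, error 0.25), so that its probes disagreed in direction. Squalene epoxidase, Sqle (NM_009270), which adds the first oxygen of the sterol and is a rate-limiting step after mevalonate, read 699 in WT and 2061 in ESAM-KO. This is a ratio of 1.24 (error 0.20), or 2.36-fold higher. The probe was in the brightest quartile of signal, where 2.63% of all genes measured on both arrays were past 2-fold in either direction. That share was larger for the dimmer calls. It was 10.8% in the third quartile (Nr1h2 and Abcg1), 19.1% in the second (Msmo1 and Insig2) and 17.9% in the dimmest (Cyp51 and Abca1). Lanosterol synthase, Lss (NM_146006), which closes the sterol rings, read 46.1 in ESAM-KO and 11.6 in WT, where it was not well above background. Its ratio is therefore a bound, at least 2.94-fold higher in ESAM-KO (1.56), taken against the lowest signal above background on the WT array, 12.6. Of all genes with such a bound from 1 array, 38.7% were past 2-fold in either direction. Both genes past 2-fold in this group have 1 named probe each.

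Among the 8 enzymes that turn lanosterol into cholesterol, 2 were higher in ESAM-KO by more than 2-fold and none was lower, with a median of 0.49. Both act on the methyl groups of the sterol ring. Cyp51 (NM_020010), the lanosterol 14-alpha-demethylase, read 41.2 in WT and 111 in ESAM-KO (ratio 1.12, error 0.23), or 2.17-fold higher. Msmo1 (NM_025436), the methylsterol monooxygenase of the C-4 methyl groups, read 112 in WT and 514 in ESAM-KO (ratio 1.88, error 0.21). At 3.68-fold, Msmo1 had the largest ratio of the 28 genes measured on both arrays, above the ratios or bounds of 98.6% of all named genes with a ratio.

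The remaining enzymes of C-4 demethylation did not follow Msmo1 alike. Hsd17b7 (NM_010476), the 3-ketosteroid reductase, read 82.9 in WT and 176 in ESAM-KO at its brighter probe (ratio 0.77, error 0.21), within 2-fold, and 27.3 and 107 at its dimmer one (ratio 1.65, error 0.25), past it. Nsdhl (NM_010941), the decarboxylating dehydrogenase between them, read 195 and 158 (ratio -0.62, error 0.21), and its second probe stayed at background in both samples. Msmo1 and Hsd17b7 were thus brighter and Nsdhl dimmer on the ESAM-KO array, both before and after scaling.

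Among the other 4 enzymes after lanosterol, Dhcr7 (NM_007856), the 7-dehydrocholesterol reductase, read 159 in WT and 307 in ESAM-KO (ratio 0.63, error 0.21). The isomerase Ebp (NM_007898) read 656 and 1037 (ratio 0.34, error 0.20), and the desaturase Sc5d (NM_172769) read 248 and 245 (ratio -0.33, error 0.21). Tm7sf2 (NM_028454), the sterol reductase next after Cyp51, read 70.2 and 54.9 (ratio -0.67, error 0.22) at its brighter probe. Its other probe was at 0.04. None of these 4 was past 2-fold. Over the 11 enzymes after farnesyl diphosphate, 4 were higher by more than 2-fold, none was lower, and the median was 0.63, while over all 18 enzymes the median was 0.13.

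**Figure D2:**
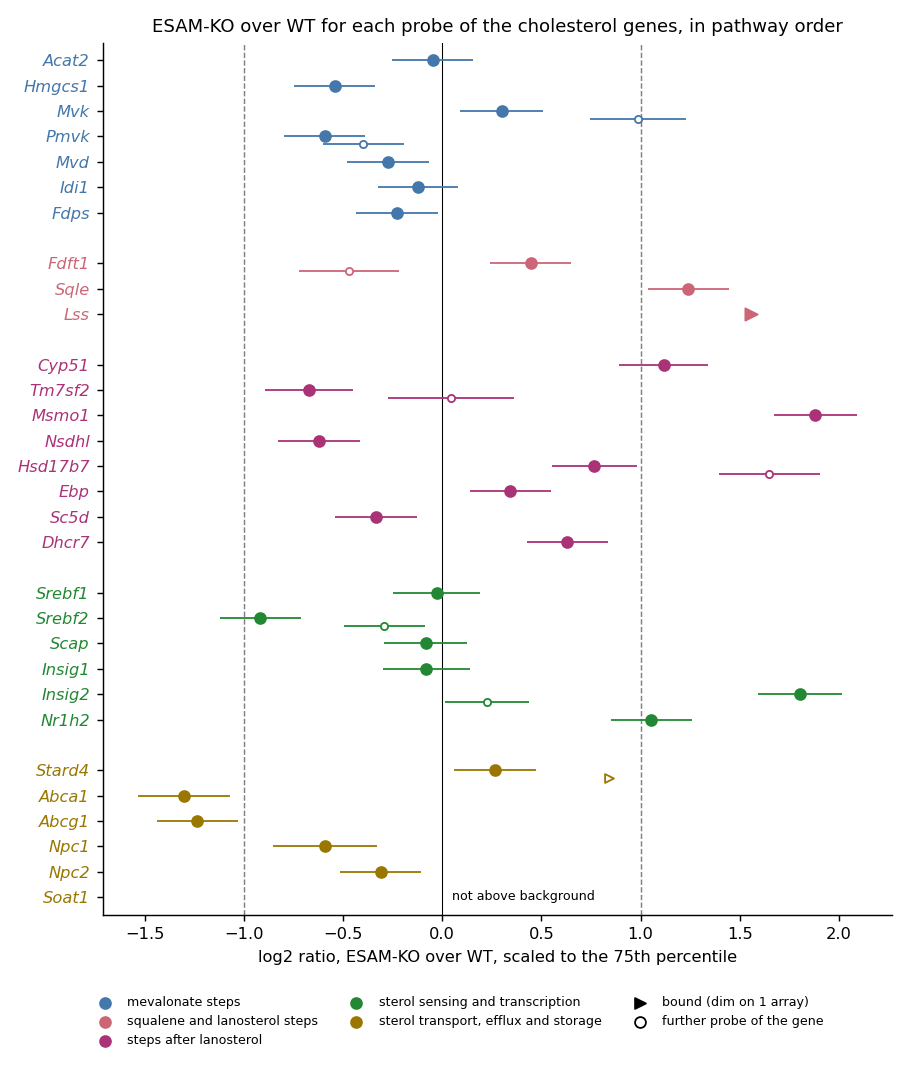
Scaled log2 ratio, ESAM-KO over WT, for each probe of the 30 genes in pathway order; filled points are the brightest probe of a gene, open points its further probes, triangles bounds, bars the scanner software's error, and dashed lines 2-fold. At their brightest probes, the 7 mevalonate genes lie between -0.59 and 0.30 and 4 of the next 11 enzymes lie beyond 1, while the further probes of Mvk and Hsd17b7 lie at 0.99 and 1.65, and Abca1 and Abcg1 lie below -1.

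The sensing and transcription genes were split, with 2 past 2-fold, both higher, and a median of -0.05 over 6 genes. Srebf2 (NM_033218), which encodes the SREBP that acts mainly on cholesterol genes, read 813 in WT and 537 in ESAM-KO (ratio -0.92, error 0.20), 1.89-fold lower and closest to the criterion among the genes that did not pass it, while its other probe read 349 and 356 (ratio -0.29, error 0.20). Srebf1 (NM_011480), whose products act more on fatty acid genes, read 67.4 and 82.4 (ratio -0.03, error 0.22). The escort protein Scap (NM_001001144) read 147 and 173 (ratio -0.08, error 0.21). None of these 3 was above 0 after scaling, whereas Srebf1 and Scap were above 0 without it, at 0.29 and 0.23.

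The Insig genes, whose products retain Scap in the endoplasmic reticulum, behaved differently. Insig1 (NM_153526), which is itself an SREBP target, read 73.1 in WT and 86.1 in ESAM-KO (ratio -0.08, error 0.22). Insig2 was represented by probes for different transcripts. The probe of NM_178082 read 72.3 in WT and 315 in ESAM-KO (ratio 1.80, error 0.21), or 3.49-fold higher, whereas the probe of NM_133748 read 78.4 and 114 (ratio 0.22, error 0.21), within 2-fold. The gap between them, 1.58, was the widest among the 7 genes of the set with more than 1 probe above background on both arrays, and the call of Insig2 past 2-fold belongs to the NM_178082 probe only. In WT the NM_133748 probe was the brighter one, so that the choice of the NM_178082 probe rests on its ESAM-KO signal.

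Nr1h2 (NM_009473), the liver X receptor beta, read 483 in WT and 1250 in ESAM-KO (ratio 1.05, error 0.20), or 2.08-fold higher, the call closest to the criterion. With Cyp51 (1.12) it was the nearest inside the criterion, and Srebf2 (-0.92) and Hsd17b7 (0.77) were the nearest outside it.

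In transport and efflux the direction was the reverse, with none higher and 2 of 5 measured genes lower by more than 2-fold, and a median of -0.59. Abca1 (NM_013454), the exporter that loads cholesterol onto lipid-poor apolipoproteins, read 95.6 in WT and 48.4 in ESAM-KO (ratio -1.30, error 0.23), or 2.46-fold lower. Abcg1 (NM_009593), which exports cholesterol to lipoprotein particles, read 392 in WT and 208 in ESAM-KO (ratio -1.24, error 0.21), or 2.35-fold lower. Both are known targets of the liver X receptors, and both were lower on the ESAM-KO array, where the probe of the receptor gene Nr1h2 was higher. Not all measured genes known as targets of these receptors were lower. At their brightest probes, Srebf1 (ratio -0.03, error 0.22) and Mylip (ratio 0.05, error 0.21) differed between the arrays by less than the error. Targets of these receptors were not compared as a list, and a link between these values was not tested. Only 5.28% of all named genes with a ratio had a lower one than Abca1, and 5.88% had a lower one than Abcg1.

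The carriers and the storage enzyme stayed within 2-fold or could not be read. Npc1 (NM_008720), which moves cholesterol out of lysosomes, read 39.1 in WT and 32.3 in ESAM-KO (ratio -0.59, error 0.26). Its soluble partner Npc2 (NM_023409) read 1279 and 1286 (ratio -0.31, error 0.20). The cytosolic carrier Stard4 (NM_133774), a known SREBP target, read 162 and 243 (ratio 0.27, error 0.21), and a second probe, not above background in WT, gave a bound of at least 1.79-fold higher. Soat1 (NM_009230), which esterifies cholesterol for storage, read 13.3 and 9.63, near background in both samples, and has no ratio. Stard4 was the only measured gene of this group above 0.

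**Figure D3:**
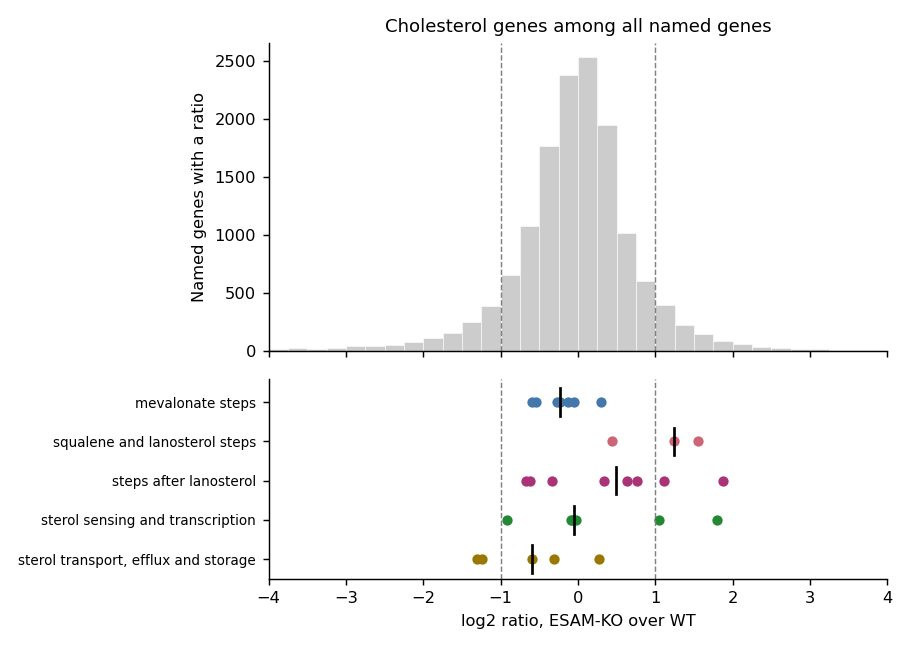
Top, number of named genes in each bin of the log2 ratio (ESAM-KO over WT); bottom, the 29 cholesterol genes with a ratio, each a point in the row of its role, with a black bar at the median of the role and dashed lines at 2-fold. Medians run from -0.59 for transport to 1.24 for the squalene and lanosterol steps, with those of the mevalonate and sensing genes near 0.

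How far these calls hold was read from the probes and from other ways of processing. Of the 7 genes with more than 1 probe above background on both arrays, the probes of 5 lay on 1 side of 0, and those of 4 did so while also within 2-fold of each other, 4 of 7 beside 52.1% of the 3056 named genes of that kind. Among the 8 genes past 2-fold, Insig2 alone had a second named probe. Under 12 other scalings, background corrections, filters and probe summaries, Msmo1 (1.35 to 2.20), Sqle (1.11 to 1.56) and Insig2 (1.01 to 2.12) were past 2-fold in all 12. For Insig2 this does not bear on the choice of probe, since only the mean of probes (1.01) drew on the NM_133748 probe. Lss was so in 10 of 11, with 0.42 under normexp background correction, which adds an offset. Cyp51 and Nr1h2 fell short when arrays were set to their medians (0.99 and 0.92) and with normexp (0.67 and 0.92). Without scaling Abca1 was at -0.98 and Abcg1 at -0.92, both short of 2-fold, and with normexp Abca1 was at -0.66.

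**Figure D4:**
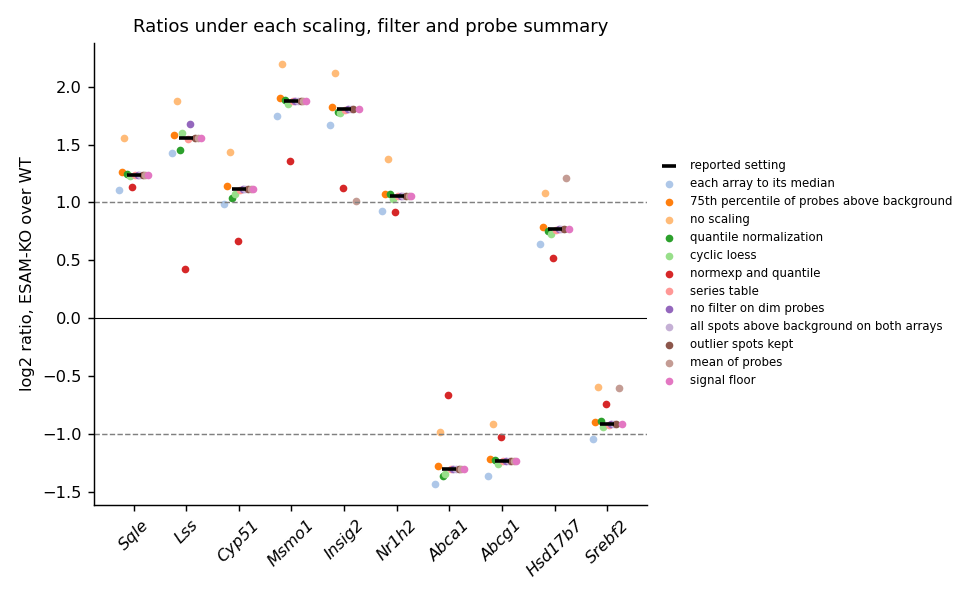
Log2 ratio, ESAM-KO over WT, for the 8 genes past 2-fold and the 2 nearest to it, under the reported setting (black bar) and 12 alternatives (coloured points), with dashed lines at 2-fold. All alternatives leave Sqle, Msmo1 and Insig2 above 1, those for Cyp51 spread from 0.67 to 1.44, and Abca1 and Abcg1 reach -0.66 and -0.92.

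Other genes around the pathway were compared as 4 lists, each read against the 6.99% and 8.43% of all genes that were higher or lower by more than 2-fold. Of 19 genes that process SREBP, degrade sterol-regulated enzymes or act beside SREBP and the liver X receptors, none was higher and 1 was lower, with a median of 0.05. That gene was Ncoa1, a nuclear receptor coactivator, at 96.0 in WT and 25.7 in ESAM-KO (ratio -2.22), with -0.53 at a second probe and, at another that was not above background in WT, a bound on the other side of 0 (0.44). The protease genes Mbtps1 and Mbtps2, which cut SREBP and were named after their values were seen, were at -0.27 and -0.18.

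Of 15 genes on the isoprenoid branches, which leave the pathway at farnesyl diphosphate, 2 were higher and 2 lower, with a median of 0.07. Rabggta, a subunit of the Rab prenyltransferase, read 21.2 and 117 (ratio 2.15), and Pdss1, which makes the side chain of ubiquinone, read 414 and 1225 (ratio 1.25). Pdss2, the partner subunit of Pdss1, read 80.1 and 46.8 (ratio -1.09), with -0.06 at its other probe. The fourth, Dhdds, a dolichol enzyme named after its values were seen, had probes that disagreed, at -1.68 and 1.16.

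Among 24 measured genes of other sterol carriers, uptake and ester handling, 2 were higher and 2 lower, with a median of -0.16. Gramd1c, a sterol transporter of membrane contacts, read 298 and 799 (2.15-fold higher), and Gramd1b, of the same family, was at least 2.32-fold higher. Scarb1, the HDL receptor, read 268 in WT and 152 in ESAM-KO (ratio -1.13), with -0.95 at its other probe, and Vldlr, a lipoprotein receptor, was at least 4.59-fold lower. Of 13 measured genes of fatty acid synthesis, 1 was higher and 2 were lower, with a median of 0.40. Me1, the malic enzyme that supplies NADPH, was at least 3.17-fold higher at its brightest probe. The bounds of its other probes were within 2-fold (0.66 each), and no Me1 probe was above background in WT. Fasn, the fatty acid synthase, and Pnpla3, a lipid droplet protein, were lower by at least 2.36-fold and 5.02-fold, each from a probe not above background in ESAM-KO.

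The sorted cells of the arrays also differed in markers of cell types, whose part in the cholesterol values was not tested. Of 16 erythroid markers, 7 were more than 2-fold lower in ESAM-KO and none was higher, with a median of -0.75 and summed signals, not scaled between arrays, of 112342 in WT and 49641 in ESAM-KO. All 13 measured neutrophil markers were lower, with a median of -3.30 and summed signals of 60148 and 10115, among them Ctsg (-4.68) and Ltf (-4.20). Of 10 B cell markers 6 were lower and none was higher (median -1.31), and 8 of the 10 lay below 0. Their sums, 2788 and 3607, were mostly the signal of Cd22 (2152 and 3363). Of 6 measured markers of mast cells, basophils and eosinophils, 3 were lower and 1 was higher (median -1.47, sums 3170 and 2167). Macrophage markers had a median of 0.17 over 10 measured genes and sums of 7463 and 8262. C1qa was higher (1.19), at a dim 17.7 in WT and 50.3 in ESAM-KO, and C1qb was at 0.30. Vcam1 was lower (-2.88, and -1.03 at its other probe), while C1qc, Mrc1, Cd163 and Mertk were at background in both samples. The macrophage sums were mostly the signal of Csf1r (6554 in WT and 7310 in ESAM-KO). Endothelial and megakaryocyte lists had medians of 0.03 and 0.14, with 2 higher and 1 lower of 8, and 1 higher and 3 lower of 10.

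Most genes of the sort antigens were within 2-fold. Kit read 3414 in WT and 3326 in ESAM-KO, Eng 375 and 269, Slamf1 17.8 and 23.0, and Itga2b 35.8 and 29.7, all above background. Among antigens that the sort left out, Ly6a, which encodes Sca1, was at least 5.79-fold lower in ESAM-KO. The probes of Itgam, which encodes the lineage antigen Mac1, disagreed. The brightest read 76376 and 82076, whereas the others read 270 and 116 (ratio -1.54) and 81.7 and 69.8 (ratio -0.55), so that the first is not taken as a level of Mac1 in the sorted cells, and what it binds was not tested.

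**Figure D5:**
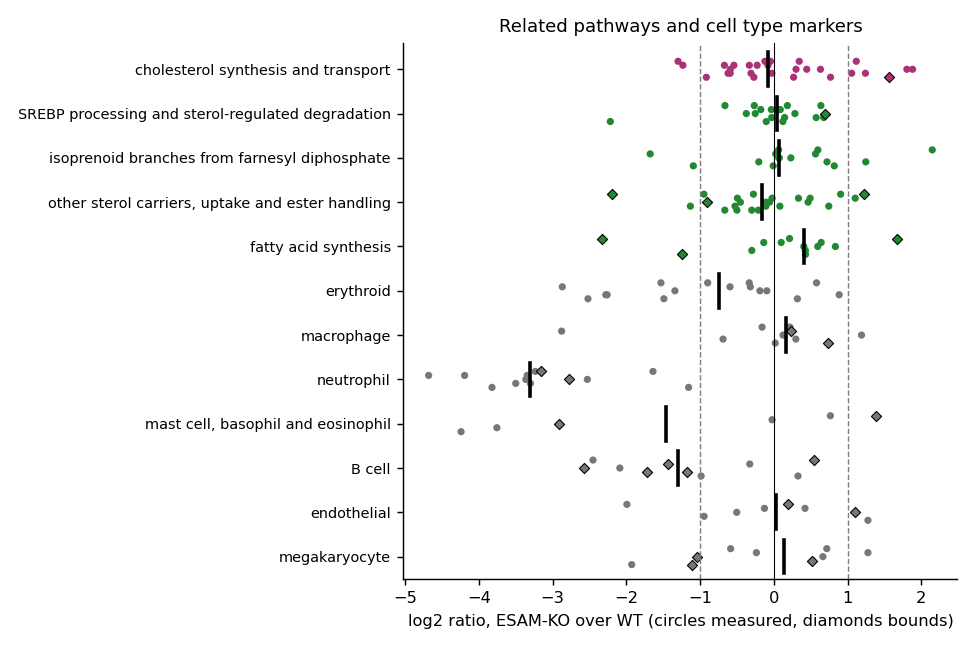
Log2 ratio, ESAM-KO over WT, for the cholesterol genes (top row), 4 related gene lists (green) and 7 lists of cell type markers (grey), with circles for genes above background on both arrays, diamonds for bounds, black bars for medians and dashed lines at 2-fold. The cholesterol genes have a median of -0.08, and the neutrophil (-3.30), mast cell, basophil and eosinophil (-1.47), B cell (-1.31) and erythroid (-0.75) markers lie lowest.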

How the data were processed

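The authors deposited the intensity of each spot from Agilent Feature Extraction 10.10.1.1 (per the submitters' processing notes), background-subtracted and detrended within the array. The study's methods name no scaling. Control spots and 254 spots with an outlier flag on either array were left out, log2 values of a probe's spots were averaged, and each array was set to its 75th percentile. Above background means that over 50% of a probe's spots were well above it. Where this held on 1 array only, the ratio is a bound against the dim array's lowest signal above background (12.6 in WT, 13.2 in ESAM-KO), or the dim probe's own where that was higher. Spots above background made up 57.3% in WT and 61.1% in ESAM-KO, and 0 were saturated. RefSeq symbols, matched by accession and used for names only, named 27235 probes.

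The members and lists were chosen with earlier results of these data known. All members are named. Other genes were named where past 2-fold with all probes above background on both arrays on the same side of 0, at most 4 a list. Cell type and sort markers named singly were picked after their values were seen. Python 3.11.15, pandas 2.3.3, numpy 2.4.6, R 4.3.3 and limma 3.58.1 were used, and the counting was tested on simulated data. As alternatives, arrays were scaled to the median or to the 75th percentile of detected probes, left unscaled, or normalized by quantiles or by cyclic loess. Normexp (offset 50) was run on median spot signals in place of mean signals. The deposited series table, 2 other detection filters, flagged spots retained, averaged probes, a signal floor, other fold criteria and a shorter promoter window were also tried. Precision is limited by the number of arrays.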

Additional observations from a re-analysis of the deposited data

How the results depend on the processing

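Results rest on 1 array per genotype, so the alternatives show the effect of processing and not of sampling. Of 347 values of single genes under the alternatives, 304 moved within the error given by the scanner and 43 beyond it, and the direction of no gene past 2-fold changed. The counts past 2-fold, 6 higher and 2 lower, moved to 0 lower without scaling, to 3 higher (Sqle, Msmo1 and Insig2) and 1 lower (Abcg1) with normexp, to 2 higher and 0 lower at 3-fold, and to 7 lower at 1.5-fold, with 8 higher. Elsewhere, 4 to 7 were higher and 2 or 3 were lower, the 3 with median scaling, which put Srebf2 at -1.05. Hsd17b7 was past 2-fold without scaling (1.09) and with the mean of probes (1.21). Without scaling, which raised the median of all named genes to 0.31, the median was 0.24 for all members, 0.091 for the mevalonate steps, 1.56 for the squalene and lanosterol steps, 0.81 for the steps after lanosterol, 0.26 for sensing and -0.27 for transport. Acat2, Mvd, Idi1, Fdps, Srebf1, Scap, Insig1 and Npc2 were then above 0, and Fdft1 was at -0.01 with the mean of probes. Without scaling 12.7% of all genes were higher and 5.12% lower, with median scaling 5.34% and 10.8%, and with normexp 1.69% and 3.45%. At 1.5-fold 15.6% of all genes were higher and 17.6% lower, beside 27.6% and 24.1% of the members. The share over all genes was not taken at 3-fold. With normexp the median was 0.43 for the squalene and lanosterol steps and -0.25 for transport, and with both arrays above background, which leaves out Lss, the former was 0.84. Counting any probe of a gene, chosen after seeing the data, added Hsd17b7 to the higher genes, and 9.63% of all named genes were then higher. In the shorter promoter window, the E-box was in 5 and the CCAAT box in 19 of the 24 genes, or 20.8% and 79.2%. Over the genes with a ratio and a promoter, the shares were 8.59% and 34.3%. Signal over background left Soat1 without a ratio and Lss with a bound. No paired analysis was possible because neither genotype was measured on more than 1 array.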
